A study of Mus musculus with 16 samples.

Results

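Hepatic stellate cell genes were described in tumor RNA from 16 mice with MC38 liver metastasis. The 10 genes Ecm1, Reln, Lrat, Hgf, Colec11, Hand2, Lhx2, Ngfr, Vipr1 and Pth1r were taken by name from the 21959 genes in the count tables, and Ecm1 was set against the other 9. The genes were chosen by their levels over these same 4 groups, so their group values are given as a description, with fold changes and standard errors but no p-values. MC38 is a mouse colon adenocarcinoma cell line, and the study seeded the liver by injecting it into the lower part of the divided spleen of male wild-type C57BL/6 mice that were 6 weeks old. Each group held 4 mice. The control mice received PBS. The SB525334 mice received 20 mg/kg of SB525334, an inhibitor of the type I TGF-β receptor ALK5, by daily gavage. The KN046 mice received 10 mg/kg of KN046, a bispecific antibody against PD-L1 and CTLA-4, into the peritoneum at repeated doses each week, and the combination mice received both agents. Every group carried the same tumor cells in the same host strain, and no cell type was sorted before RNA extraction. Which cells gave the reads of each gene, tumor or host, was not tested.

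Hepatic stellate cells are the vitamin A storing mesenchymal cells of the liver, lying between sinusoidal endothelium and hepatocytes. When quiescent they hold retinyl esters in lipid droplets and secrete growth factors and matrix proteins, and on injury they can turn into contractile, collagen-producing myofibroblasts, a change in which TGF-β is a central signal. Colorectal liver metastases draw part of their fibroblasts from these cells, which is why genes of the quiescent state are of interest beside a TGF-β receptor inhibitor.

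The libraries held between 18368994 and 23877131 counts per mouse, and all 10 genes passed the filter on low counts with 13968 genes tested. Control mice 1 and 2, and control mice 3 and 4, were far more alike than any other mice of a group (median chi-square per gene 1.25 and 0.956, against 2.82 or more for the other pairs), yet differed beyond sampling noise. They were kept as 4 samples, so the SD of the control group describes 2 pairs of similar samples. Hepatocyte markers were read beside the label of the tissue as liver metastasis. The summed level of 16 hepatocyte genes lay at 19740 to 24330 CPM (counts scaled to a common library size) in the control mice. It lay at 791.8 to 2762 CPM with SB525334, 11650 to 24950 CPM with KN046 and 75.32 to 95.87 CPM with the combination. The level of these markers thus differed between groups, and the label was not tested by them. In bulk RNA, fewer cells of a type and less RNA per cell cannot be told apart.

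Promoter sequences are shown for 4 of the genes, Ecm1 as the gene set against the rest and Reln, Hand2 and Lhx2 as genes that were near or at 0 in the combination mice. Each run is the 250 bases before the start of the canonical transcript, read 5′ to 3′ on the strand of the gene from GRCm39 with GENCODE M39 gene models. Capitals mark matches, on either strand, to the E-box CANNTG, the motif bound by basic helix-loop-helix proteins such as Hand2, and to TAATTA, a core motif of LIM homeobox proteins such as Lhx2. The windows are chr3:95646944-95647193 (minus strand) for Ecm1, chr5:22549701-22549950 (minus strand) for Reln, chr8:57773761-57774010 (plus strand) for Hand2 and chr2:38240521-38240770 (plus strand) for Lhx2.
Ecm1: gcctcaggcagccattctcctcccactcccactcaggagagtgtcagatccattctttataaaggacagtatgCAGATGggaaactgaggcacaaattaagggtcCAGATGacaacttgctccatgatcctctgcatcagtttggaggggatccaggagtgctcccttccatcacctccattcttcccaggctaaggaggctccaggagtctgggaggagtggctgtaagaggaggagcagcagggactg
Reln: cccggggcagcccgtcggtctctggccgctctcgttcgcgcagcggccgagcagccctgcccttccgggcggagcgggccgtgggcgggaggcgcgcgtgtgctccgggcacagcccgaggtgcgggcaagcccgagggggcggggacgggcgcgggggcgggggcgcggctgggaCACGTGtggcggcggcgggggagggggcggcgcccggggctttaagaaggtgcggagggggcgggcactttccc
Hand2: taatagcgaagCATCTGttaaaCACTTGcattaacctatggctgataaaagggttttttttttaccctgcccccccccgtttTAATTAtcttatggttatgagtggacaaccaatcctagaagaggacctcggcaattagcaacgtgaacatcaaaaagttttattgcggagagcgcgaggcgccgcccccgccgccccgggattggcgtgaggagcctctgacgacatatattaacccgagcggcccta
Lhx2: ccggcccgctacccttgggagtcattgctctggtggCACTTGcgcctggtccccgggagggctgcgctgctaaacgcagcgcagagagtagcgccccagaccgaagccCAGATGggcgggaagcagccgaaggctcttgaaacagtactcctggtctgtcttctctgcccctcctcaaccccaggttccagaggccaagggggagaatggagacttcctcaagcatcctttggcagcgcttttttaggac

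The Ecm1, Hand2 and Lhx2 windows held 2 E-boxes each and the Reln window held 1. TAATTA was found in the Hand2 window and in none of the other 9. An E-box was present in 8 of the 10 windows, against 64.8% of the 21770 promoters of the same length, and TAATTA in 1 of 10, against 5.19%. The motifs were searched on both strands and may share bases with one another. The Smad box CAGAC was present in 4 of the 10 windows, against 41.3% of promoters. The AP-1 motif TGANTCA was in 0 of the 10, against 6.19%, and the motif AGATAA of GATA factors was in 1, the Hand2 window, against 9.71%. A match is a description of the letters and not a bound site. The Reln window was 80.8% G or C and the Hand2 window 49.2%, with a median of 53.2% over all promoters.

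Compared per kilobase of merged exons, Ecm1 was the most abundant of the 10 genes in every group. In the control mice Ecm1 lay at 204 CPM per kb, which was 29.6 times the level of Ngfr per kb and 884 times that of Lhx2 per kb. The control order per kb was Ecm1, Ngfr at 6.91, Pth1r at 2.03, Colec11 at 2.00, Hand2 at 0.766, Vipr1 at 0.601, Reln at 0.486, Hgf at 0.461, Lrat at 0.438 and Lhx2 at 0.231 CPM per kb. The ranges over mice overlapped between Pth1r and Colec11 and between each neighboring pair from Hand2 to Lrat, so the order within those runs is not beyond the spread of the mice. In the combination mice, Ecm1, Ngfr and Pth1r kept the first places without overlap, at 223, 7.16 and 3.48 CPM per kb, and the other 7 genes lay at or below 0.159 CPM per kb on average. Ecm1 alone made up 91.8% to 93.5% of the summed CPM of the 10 genes in control mice and 94.4% to 95.6% in combination mice, so a summed level of these genes is in effect a level of Ecm1. By mean CPM in the control mice, Ecm1 ranked 129 of 21959 genes, while the other 9 ranked between 7487 (Ngfr) and 12821 (Lhx2).

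**Figure D1:**
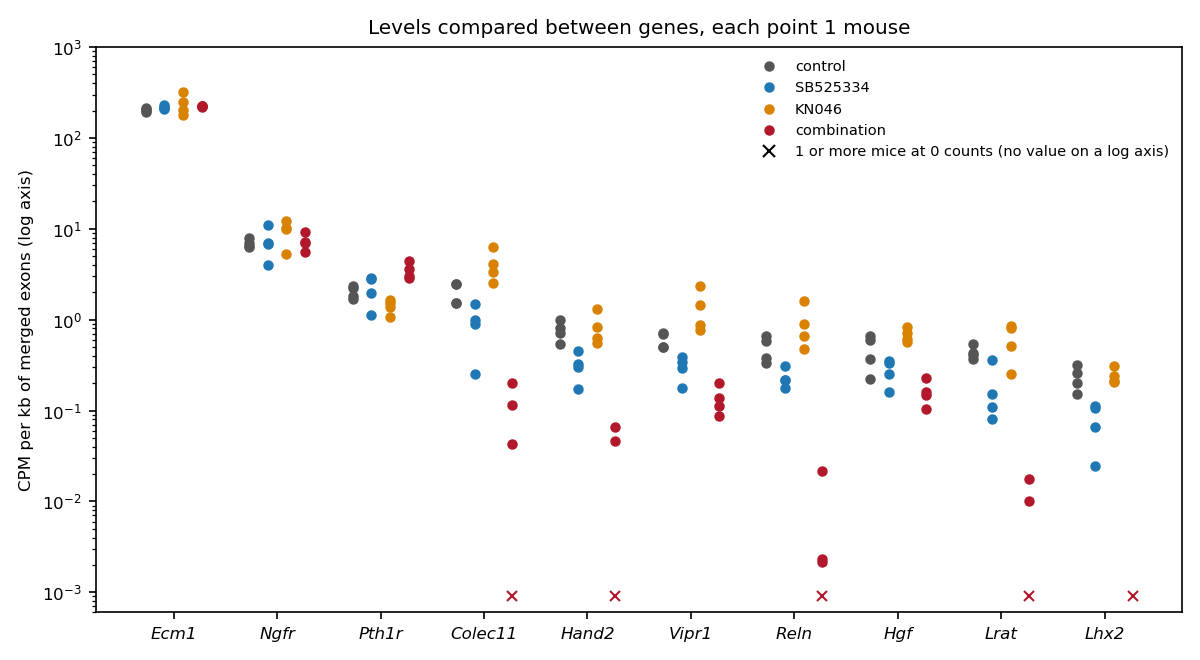
Level of each gene in CPM per kb of merged exons (log axis), 1 point per mouse, with the 4 groups side by side and genes in the order of the control means. Crosses at the foot mark combination groups in which 1 or more mice had 0 counts. Ecm1 sits near 200 CPM per kb in all 4 groups, while Colec11, Hand2, Reln, Lrat and Lhx2 reach their lowest points in the combination group.

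Ecm1 encodes a secreted extracellular matrix glycoprotein that in the liver is known to keep latent TGF-β in the matrix from being activated (ENSMUSG00000028108, GRCm39 chr3:95640761-95646943). The level of Ecm1 was 773, 793, 835 and 857.5 CPM in control mice 1 to 4, 836, 845, 876 and 918 CPM with SB525334, 984, 714, 1266 and 809 CPM with KN046, and 894.5, 895, 894 and 865 CPM with the combination. Both SB525334 and KN046 mice overlapped the control mice, and the 4 combination mice all lay above the highest control mouse, though by little. The group means were 815 ± 38.6 CPM in control, 869 ± 36.7 under SB525334, 943 ± 242 under KN046 and 887 ± 14.5 under both agents (SD, n = 4 each). In the fit, the log2 change of Ecm1 against control was 0.09 ± 0.14 (SE) for SB525334, 0.21 ± 0.14 for KN046 and 0.12 ± 0.14 for both agents. Ecm1 was called in no comparison at an adjusted p under 0.05 in edgeR. The widest spread was in the KN046 group, where mouse 3 was the highest of its group for Ecm1 and for 6 of the other 9 genes.

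**Figure D2:**
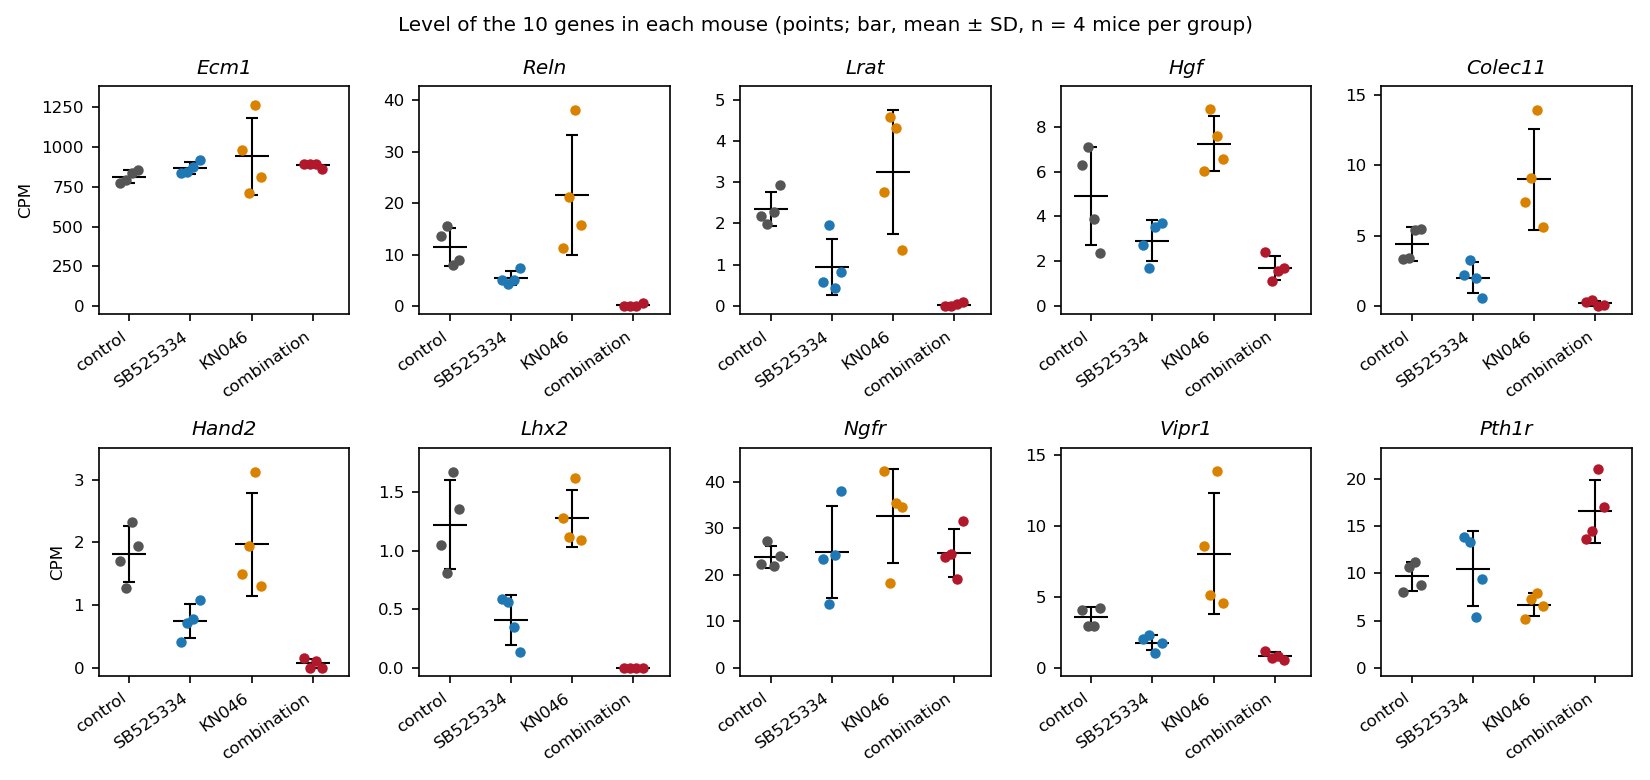
Level of each gene in CPM (linear axis) in control, SB525334, KN046 and combination mice. Points are mice 1 to 4 from left to right and bars are the mean ± SD of 4 mice. For Reln, Lrat, Colec11, Hand2 and Lhx2 the combination points sit at or near 0, while for Ecm1 they sit between 865 and 895 CPM.

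Among the other secreted products, Reln showed the widest range. Reln encodes reelin, a large secreted glycoprotein best known for guiding neurons and, in the liver, a marker of stellate cells (ENSMUSG00000042453, chr5:22089452-22549700). The level of Reln was 13.7, 15.6, 7.96 and 8.88 CPM in control mice 1 to 4, 5.15, 4.22, 5.08 and 7.37 CPM with SB525334, 11.3, 21.2, 38.1 and 15.9 CPM with KN046, and 0.0514, 0.0552, 0 and 0.519 CPM with the combination. All SB525334 mice lay below all control mice, the KN046 mice overlapped the control mice, and the combination mice held 13 reads in all, 11 of them in mouse 4. The mean was 47.3% of the control mean for SB525334, 187% for KN046 and 1.36% for both agents. On the log2 scale, Reln differed from control by -1.08 ± 0.40 (SE) for SB525334, 0.90 ± 0.39 for KN046 and -6.06 ± 0.60 for the combination. Summed over the group, Reln was 69.4-fold lower in the combination than in control mice (95% exact counting interval 40.4 to 131, which covers counting error only).

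Hgf, hepatocyte growth factor, is the secreted ligand of the receptor tyrosine kinase Met (ENSMUSG00000028864, chr5:16758041-16828178). The level of Hgf was 6.30, 7.10, 3.91 and 2.35 CPM in control mice, 2.71, 1.71, 3.53 and 3.71 CPM with SB525334, 6.02, 8.80, 7.60 and 6.55 CPM with KN046, and 2.41, 1.10, 1.58 and 1.70 CPM with the combination. The similar control pairs stood apart for Hgf, with mice 1 and 2 above mice 3 and 4, and control mouse 4 lay just below combination mouse 1, so these groups overlapped. Fitted log2 fold changes of Hgf against control were -0.76 ± 0.33 (SB525334), 0.56 ± 0.32 (KN046) and -1.53 ± 0.34 (combination), where the mean was 34.6% of the control mean. Hgf thus stayed measurable in every combination mouse, with 20 to 47 reads.

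Colec11 encodes collectin-11, a secreted lectin that binds sugars on microbes and starts the lectin pathway of complement (ENSMUSG00000036655, chr12:28644168-28673488). The level of Colec11 was 3.37, 3.41, 5.43 and 5.49 CPM in control mice, 2.22, 3.26, 1.98 and 0.560 CPM with SB525334, 7.36, 9.09, 13.9 and 5.61 CPM with KN046, and 0.257, 0.441, 0 and 0.0943 CPM with the combination. None of the treatment groups overlapped the control group: SB525334 and the combination lay below it and KN046 above it. Relative to control, Colec11 stood at -1.13 ± 0.47 on the log2 scale under SB525334, at 1.02 ± 0.45 under KN046 and at -4.46 ± 0.61 under both agents. The group sums gave a 22.4-fold lower level in the combination than in control mice (95% exact counting interval 13.4 to 40.5).

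Lrat encodes lecithin retinol acyltransferase, the enzyme that makes the retinyl esters stored by quiescent stellate cells (ENSMUSG00000028003, chr3:82799886-82811288). The level of Lrat was 2.19, 1.99, 2.28 and 2.93 CPM in control mice, 0.588, 1.95, 0.430 and 0.818 CPM with SB525334, 2.77, 4.57, 4.30 and 1.35 CPM with KN046, and 0, 0, 0.0546 and 0.0943 CPM with the combination. The SB525334 mice all lay below the control mice, mouse 2 only narrowly, and the KN046 mice spanned the control range. In the combination group, 3 reads were counted in 4 mice against 193 in the control mice, a ratio of 59.9 with a 95% exact counting interval of 20.2 to 293. On the log2 scale, Lrat differed from control by -1.29 ± 0.47 for SB525334, 0.47 ± 0.45 for KN046 and -5.71 ± 0.72 for the combination.

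The transcription factors Hand2 and Lhx2 were at or near 0 in the combination mice. Hand2 is a basic helix-loop-helix factor of mesenchymal lineages (ENSMUSG00000038193, chr8:57774011-57777677), and Lhx2 is a LIM homeobox factor that restrains stellate cell activation (ENSMUSG00000000247, chr2:38229293-38259759). The level of Hand2 was 1.71, 1.28, 2.33 and 1.93 CPM in control mice, 0.407, 0.717, 0.775 and 1.08 CPM with SB525334, 1.49, 1.95, 3.13 and 1.30 CPM with KN046, and 0.154, 0, 0.109 and 0 CPM with the combination. SB525334 and combination mice all lay below the control mice, and KN046 mice overlapped them. Fitted log2 fold changes of Hand2 against control were -1.27 ± 0.44 (SB525334), 0.12 ± 0.42 (KN046) and -4.68 ± 0.62 (combination), and the group sums gave a 27.7-fold lower level in the combination (95% exact counting interval 11.6 to 86.7).

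For Lhx2 the level was 1.05, 0.805, 1.67 and 1.36 CPM in control mice, 0.588, 0.557, 0.344 and 0.129 CPM with SB525334, 1.28, 1.12, 1.62 and 1.09 CPM with KN046, and 0 in all 4 combination mice. The SB525334 mice lay below the control mice, and the KN046 mice lay within the control range. A count of 0 in the combination group allows up to 3 counts over the group, or 0.0389 CPM, so Lhx2 was at least 31-fold lower than in control mice, at least 32.6-fold lower than with KN046 and at least 10.4-fold lower than with SB525334. Against control, the fitted log2 difference of Lhx2 was -1.58 ± 0.43 for SB525334 and 0.07 ± 0.40 for KN046.

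The 3 receptors of the list went different ways. Vipr1, the receptor of vasoactive intestinal peptide (ENSMUSG00000032528, chr9:121471775-121502020), lay at 4.07, 2.94, 2.94 and 4.23 CPM in control mice, 2.03, 2.27, 1.03 and 1.72 CPM with SB525334, 8.58, 5.15, 13.9 and 4.57 CPM with KN046, and 1.18, 0.662, 0.819 and 0.519 CPM with the combination. No treatment group overlapped the control group, with KN046 above it and the others below it. The mean of Vipr1 was 49.8% of the control mean under SB525334, and its fitted log2 difference from control was 1.18 ± 0.34 under KN046 and -2.15 ± 0.38 under both agents, where the mean was 22.4% of the control mean.

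Ngfr, the p75 neurotrophin receptor (ENSMUSG00000000120, chr11:95459638-95478561), lay at 22.3, 27.2, 21.8 and 24.1 CPM in control mice, 23.4, 13.8, 24.4 and 38.0 CPM with SB525334, 42.3, 18.2, 35.5 and 34.6 CPM with KN046, and 23.8, 24.4, 19.2 and 31.5 CPM with the combination. All treatment groups overlapped the control group. On the log2 scale, Ngfr differed from control by 0.06 ± 0.26 for SB525334, 0.45 ± 0.26 for KN046 and 0.05 ± 0.26 for the combination. Like Ecm1, Ngfr was called in no comparison.

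Pth1r, the receptor of parathyroid hormone and its related peptide (ENSMUSG00000032492, chr9:110550767-110576259), lay at 8.05, 10.7, 11.2 and 8.73 CPM in control mice, 13.9, 13.4, 5.38 and 9.43 CPM with SB525334, 5.12, 7.29, 7.88 and 6.50 CPM with KN046, and 13.7, 14.5, 21.1 and 17.1 CPM with the combination. All KN046 mice lay below and all combination mice above the control mice, while SB525334 mice fell on both sides. Fitted log2 fold changes of Pth1r against control were 0.12 ± 0.25 (SB525334), -0.53 ± 0.25 (KN046) and 0.78 ± 0.25 (combination). None of these was called in the main edgeR fit. In the combination against control, Pth1r was called higher by DESeq2. It was also called there by edgeR with RLE scaling, with a filter of 1 CPM in 4 samples, with only the 8 mice compared and without combination mouse 1. In the combination against KN046, edgeR called Pth1r higher, at a log2 change of 1.31 ± 0.25. Its exons share 95 bases with Myl3 on the opposite strand, 1.99% of its length, and reads there cannot be assigned without strand.

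Counted over the list, the combination stood apart from control for 7 of the 10 genes. In the main edgeR fit, Reln, Lrat, Hgf, Colec11, Hand2, Lhx2 and Vipr1 were called lower and 0 higher (DESeq2 called 8, with Pth1r on the higher side). Of all genes tested, 9.74% were called lower and 1.37% called higher in this comparison. The mice did not overlap for 6 genes on the lower side and 2, Ecm1 and Pth1r, on the higher side, against 12.1% and 5.32% of all genes. With SB525334 alone, Lhx2 was called lower and 0 genes were called higher, against 9.22% and 0.394% of all genes, while the mice did not overlap for 6 genes, all lower, against 13.3% of all genes lower and 5% higher. Lhx2 lost that call with control mice 1, 3 or 4 or SB525334 mice 3 or 4 left out, and Lrat gained one without SB525334 mouse 2, so the count ranged from 0 to 2. With KN046 alone, edgeR called 0 of the 10 (4 had an unadjusted p under 0.05, and DESeq2 called 1), against 2.40% of all genes called lower and 1.60% called higher. The KN046 mice did not overlap the control mice for Colec11 and Vipr1 on the higher side and for Pth1r on the lower, against 4.94% and 6.65% of all genes. Vipr1 was called higher with KN046 when KN046 mouse 2 or mouse 4 was left out. These calls carry no weight of their own, since the genes were listed with the group values known.

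**Figure D3:**
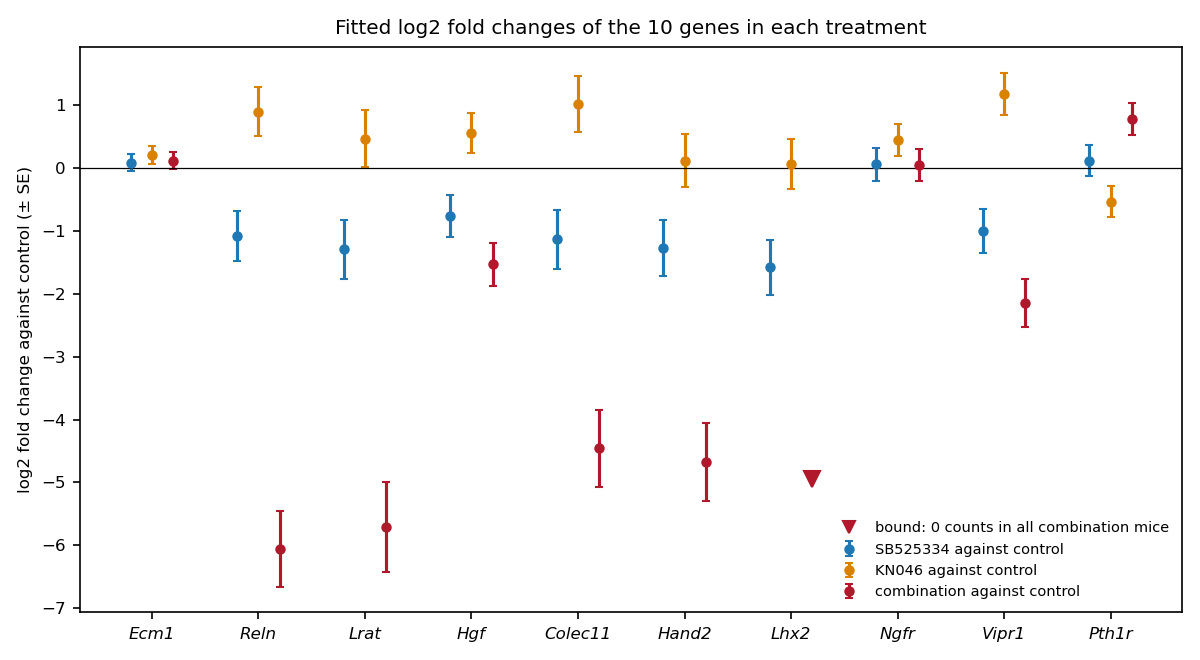
Fitted log2 fold change against control for each gene (bars, SE) with SB525334, KN046 and the combination, 4 mice per group. The triangle for Lhx2 is the bound at 3 counts over the combination group, at -4.95. Ecm1 lies between 0.09 and 0.21 in all 3 comparisons, and Reln lies at -6.06 with the combination.

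The combination was also set against each agent alone. Against KN046, 7 genes were called lower and Pth1r higher, with 14.5% and 9.89% of all genes called in those directions. The same 7 and 1 genes had mice that did not overlap, against 12.4% and 7.90% of all genes. The log2 fold change there was -6.97 for Reln, -6.18 for Lrat, -5.48 for Colec11, -4.79 for Hand2, -3.33 for Vipr1 and -2.09 for Hgf. Against SB525334, 5 genes were called lower, with 3.03% of all genes called lower and 0.544% higher: Reln at -4.98, Lrat at -4.42, Hand2 at -3.40, Colec11 at -3.32, and Lhx2 with the bound given above. Hgf at -0.77 ± 0.34 and Vipr1 at -1.15 ± 0.39 were not called in that comparison. Mice did not overlap for those 5 genes, all lower, against 4.62% of all genes lower and 2.43% higher. These comparisons share the combination mice, and those against control share the control mice.

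Against the other 9 genes, Ecm1 differed most in the combination. The log2 change of Ecm1 minus the median of the other 9 was 1.17 for SB525334, -0.26 for KN046 and 4.58 for both agents against control. It was 4.70 for the combination against KN046 and 3.35 against SB525334. With the bound in place of the fitted value of Lhx2, the median of the 10 genes did not change in any of these comparisons (-3.30 for the combination against control, where the median of all genes tested was 0.01). Ngfr and Pth1r lay on the side of Ecm1 in the combination, and these differences are a description with no test.

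The interaction asks whether the SB525334 difference was of another size with KN046 present than without it. For 6 of the 10 genes it was called lower than 0, with 2.55% of all genes called lower and 1.73% higher. The values were -5.89 ± 0.73 for Reln, -4.89 ± 0.90 for Lrat, -4.35 ± 0.77 for Colec11, -3.52 ± 0.78 for Hand2 and -2.33 ± 0.52 for Vipr1 (log2, SE), and Lhx2, at 0 in the combination mice, was the sixth. Ecm1 had an interaction of -0.18 ± 0.19, Ngfr of -0.46 ± 0.37, Hgf of -1.33 ± 0.47 and Pth1r of 1.19 ± 0.35. None of these 4 was called in the main edgeR fit. DESeq2 called 7 genes, with Pth1r among them, and at the study's thresholds it called Hgf too. With the similar control samples merged, the count of 6 became 4, without Hand2 and Vipr1.

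Other genes known from stellate cells were read in the same way. This list and the pathway and cell type lists below were chosen with earlier results of these data known. The genes named from the pathway lists include the called ones with the largest change. The adjusted p-values printed for the genes of all these lists are therefore a description and carry no weight of their own. Of 24 further stellate cell genes, 23 were tested in the combination against control, and 12 were called lower and 0 higher, with a median log2 change of -1.36. Over all genes tested, 9.74% were called lower and 1.37% higher in this comparison. Each list count given below for the combination stands beside these shares. Steap4, a metalloreductase, fell from 85.35 ± 1.37 to 1.10 ± 0.483 CPM (adjusted p = 8.39e-09, edgeR quasi-likelihood test). Colec10, the partner collectin of Colec11, fell from 212 reads to 2, a ratio of 98.7 with a 95% exact counting interval of 27 to 820 (adjusted p = 1.53e-05, edgeR). Bmp10, a ligand of the endothelial receptor ALK1, had 67 reads in control mice and 0 in the combination mice and was at least 20.8-fold lower (adjusted p = 0.000112, edgeR).

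That list also held general mesenchymal markers. Des, the intermediate filament desmin, had a log2 change of 0.18 ± 0.19 (adjusted p = 0.628, edgeR), and Pdgfrb, the PDGF receptor of mesenchymal cells, of 0.42 ± 0.17 (adjusted p = 0.152, edgeR). With SB525334 alone 8 of the 23 were called lower and 0 higher, against 9.22% and 0.394% of all genes. The count of 8 became 5 with the similar control samples merged. With KN046 edgeR called 0 of the 23, with 6 at an unadjusted p under 0.05 and 4 called by DESeq2.

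Of 17 genes of activated stellate cells and myofibroblasts tested, 4 were called lower and 0 higher with the combination, at a median log2 change of -0.39, and 2 were called with the control samples merged. Cthrc1, a secreted protein of activated fibroblasts, had a log2 change of -3.76 ± 0.62 (adjusted p = 0.00022, edgeR), Lox, a collagen cross-linking oxidase, of -1.46 ± 0.35 (adjusted p = 0.0083) and Postn, the matrix protein periostin, of -0.99 ± 0.26 (adjusted p = 0.0144).

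Around Lrat, 11 of 23 genes of retinoid storage and signaling were called lower and 1 higher with the combination, at a median of -0.67. With SB525334 alone 6 of the 23 were called lower and 0 higher, at a median of -0.25. The largest were Ttr and Rbp4, which carry retinol in plasma and are made by hepatocytes, at -10.03 ± 0.51 and -9.80 ± 0.50 (adjusted p = 2.59e-10 for each, edgeR), and Aldh1a1, a retinal dehydrogenase, at -7.78 ± 0.50 (adjusted p = 2.43e-09). Dgat1, which can also esterify retinol, had a log2 change of 0.11 ± 0.16 (adjusted p = 0.737, edgeR). The genes of this list that were called thus include products of hepatocytes, whose markers were also lower with the combination.

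Around Hgf, 5 of 18 genes were called lower and 0 higher with the combination, at a median of -0.16. With SB525334 alone 4 of the 18 were called lower and 0 higher, at a median of -0.13. Hgfac and Hpn, proteases that activate pro-Hgf, had log2 fold changes of -7.32 ± 0.51 (adjusted p = 5.39e-09, edgeR) and -6.31 ± 0.40 (adjusted p = 2.43e-09), and Mst1, an Hgf-like protein secreted by hepatocytes, of -6.46 ± 0.52 (adjusted p = 3.29e-08). Met itself lay at 87.5 ± 7.49 CPM in control and 83.8 ± 11.9 CPM in combination mice, a log2 change of -0.06 ± 0.13 (adjusted p = 0.808).

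Around Reln, edgeR called 0 of 11 genes with the combination (1 had an unadjusted p under 0.05, and DESeq2 called 0), at a median of 0.05. The reelin receptors Lrp8 and Vldlr had log2 fold changes of -0.17 ± 0.23 (adjusted p = 0.714, edgeR) and -0.14 ± 0.19 (adjusted p = 0.727). Dab1, the adaptor that reelin signaling phosphorylates, was too low to be tested, with 5 reads in control mice and 0 in combination mice.

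Around Colec11, 11 of 12 genes of the lectin complement pathway were called lower with the combination and 0 higher, at a median of -3.54. With SB525334 alone 11 of the 12 were also called lower and 0 higher, at a median of -2.91, while Colec11 itself was not called. Over all genes tested, 9.22% were called lower with SB525334. Mbl1, a mannose-binding lectin, had 1761 reads in control mice and 0 in combination mice and was at least 547-fold lower (adjusted p = 1.4e-07, edgeR). Mbl2, the second such lectin, had a log2 change of -9.50 ± 0.79 (adjusted p = 5.03e-08), and the collectin-associated proteases Masp1 and Masp2 had log2 fold changes of -4.49 ± 0.45 (adjusted p = 5.87e-07) and -7.17 ± 0.68 (adjusted p = 2.52e-07). This was the pathway list with the lowest median, and most of its products are known to be made by hepatocytes.

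Around Ngfr, 2 of 11 neurotrophin genes were called lower and 1 higher. Ntrk2, the receptor of Bdnf, had a log2 change of -2.90 ± 0.54 (adjusted p = 0.00071, edgeR), Sort1, the sortilin co-receptor, of -1.06 ± 0.28 (adjusted p = 0.0163) and Nradd, a relative of Ngfr, of 0.60 ± 0.14 (adjusted p = 0.00738). The ligand Bdnf had a log2 change of -0.01 ± 0.30 (adjusted p = 0.99).

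Around Vipr1 and Pth1r, 1 of 8 genes was called lower and 1 higher. The PACAP receptor Adcyap1r1 had a log2 change of -2.89 ± 0.39 (adjusted p = 2.03e-05, edgeR) and the receptor partner Ramp2 of 0.81 ± 0.19 (adjusted p = 0.00803), a call that was lost with the control samples merged. The ligand Vip was too low to be tested, with 1 read in control mice and 0 in combination mice, and Pthlh, a ligand of Pth1r, had a log2 change of 0.42 ± 0.44 (adjusted p = 0.629).

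Beside 9.74% of all genes called lower and 1.37% called higher, 1 of 15 partners of Hand2 and Lhx2 was called lower and 0 higher. It was Gata4, a factor known to hold stellate cells quiescent, with 520 reads in control mice and 1 in combination mice, a ratio of 484 with a 95% exact counting interval of 86.5 to 19200 (adjusted p = 3.38e-09, edgeR). Around Ecm1, among 18 genes of the latent TGF-β matrix and integrins, 1 was called lower and 0 higher, beside the same shares of all genes. It was Lrrc32, which holds latent TGF-β on cell surfaces, at -0.96 ± 0.20 (adjusted p = 0.00248, edgeR). The median of that list was 0.03.

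Most markers of hepatocytes, Kupffer cells and sinusoidal endothelium were also called lower with the combination. All 16 hepatocyte genes were called lower with the combination, at a median log2 change of -9.79, and their summed level was 8.95% of control under SB525334, 89.0% under KN046 and 0.384% under both agents. Alb, the hepatocyte product albumin, lay at 8185 ± 268 CPM in control and 9.52 ± 1.88 CPM in combination mice (adjusted p = 4.72e-10, edgeR). Of 7 Kupffer cell genes, 6 were called lower, and Clec4f, a lectin of Kupffer cells, fell from 5720 reads to 5 (adjusted p = 1.17e-06). The summed level of the Kupffer cell genes was 7.55% of control under SB525334, 81.0% under KN046 and 2.48% under both agents. Of 9 sinusoidal endothelial genes tested, 5 were called lower and 0 higher at a median log2 change of -2.76. Over all 10 sinusoidal endothelial genes listed, the mice did not overlap for 6, all lower, against 12.1% of all genes tested. With SB525334 alone 7 of the 9 were called lower and 0 higher. The summed level of the sinusoidal endothelial genes was 75.8% of control under SB525334, 100% under KN046 and 75.9% under both agents. That sum did not follow the median gene, which stood at 18.1%, 84.2% and 11.3% of the control mean in the same order. The combination mice, at 241.1 to 255.2 CPM, lay within the control range of 217.3 to 442.1 CPM for that sum. Clec4g, a lectin of these cells, had a log2 change of -6.74 ± 0.87 (adjusted p = 1.26e-05, edgeR) and Stab2, a scavenger receptor of these cells, of -1.04 ± 0.39 (adjusted p = 0.106). The part of hepatocyte, Kupffer cell or endothelial content in the levels of the 10 genes was not tested.

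**Figure D4:**
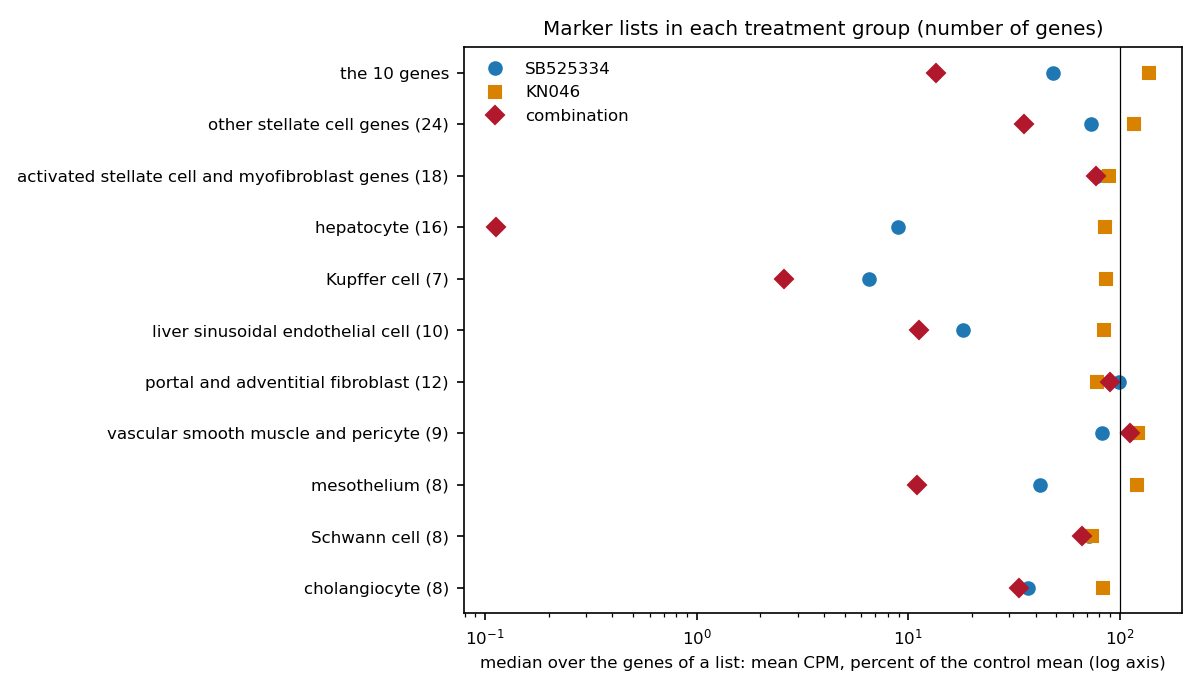
Median over the genes of each list of the group mean, as percent of the control mean (log axis), with SB525334, KN046 and the combination. The number of genes is in parentheses. The splenic mesenchyme list and the pathway lists are not drawn. In the combination group the median gene stands at 0.113% for hepatocytes, 13.5% for the 10 genes and 35.2% for the other stellate cell genes. It stands at 77.6% for activated stellate cell and myofibroblast genes. The 13.5% lies in a gap between Colec11 at 4.48% and Vipr1 at 22.4%, while Ecm1, Ngfr and Pth1r stood at 109%, 104% and 171%.

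Markers of further cell types were read in the same comparison. Of 12 portal and adventitial fibroblast genes, 3 were called lower and 0 higher at a median of -0.18. For 8 smooth muscle and pericyte genes edgeR called 0 (2 had an unadjusted p under 0.05, and DESeq2 called 2), and Myh11, the smooth muscle myosin, had a log2 change of -0.44 ± 0.55 (adjusted p = 0.691, edgeR). Of 6 mesothelial genes tested 1 was called lower and 0 higher at a median of -1.98. Over all 8 mesothelial genes listed, the mice did not overlap for 3, on the lower side, against 12.1% of all genes tested. Msln, mesothelin, had a log2 change of 0.18 ± 0.20 (adjusted p = 0.643, edgeR), and Lrrn4 and Muc16 were at 0 in all combination mice. Of 5 Schwann cell genes tested 1 was called lower, and Sox10, which defines these cells, had 0 counts in every group. Of 7 cholangiocyte genes, 4 were called lower and 0 higher at a median of -1.11. The splenic mesenchyme list had 4 genes called higher and 1 lower among 7: Tlx1, a factor of spleen mesenchyme, had 3 reads in control mice and 104 in combination mice, a ratio of 37.2 with a 95% exact counting interval of 12.4 to 183 (adjusted p = 0.000131). The median log2 change of the splenic list was 4.6 with the combination. Over the 9 genes listed, the median gene stood at 1610% of the control mean with the combination, 104% with SB525334 and 111% with KN046. The mean summed level did not follow the median gene, at 126%, 116% and 128% of control in the same order. The summed level of that list ranged from 211.8 to 251.0 CPM in control mice and from 273.1 to 317.1 CPM in combination mice. It ranged from 267.6 to 292.8 CPM in SB525334 mice and from 219.2 to 360.8 CPM in KN046 mice. The part of that list in the levels of Ecm1, Ngfr and Pth1r was not tested.

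The genes most like Ecm1, Reln and Hgf in pattern were found by Pearson's r of log2(CPM + 1) over the 16 mice among 12837 genes, as a description of mice that fall into 4 groups and share library depth. Closest to Ecm1 were Plcb3 (r = 0.911), Pacs1 (0.891), Trmt1 (0.883), Hdgfl2 (0.878) and Pitrm1 (0.875). After subtraction of the group means the values were 0.873 to 0.910, so the likeness of these genes to Ecm1 lay in differences between mice of a group. The SD of Ecm1 was 25.7% of the mean with KN046 and 1.64% to 4.74% in the other groups. The values within groups thus lean mainly on the KN046 mice. Closest to Reln were Col14a1 (r = 0.976), Igfbp1 (0.962) and Fgfr2 (0.962), which fell to 0.801, 0.470 and 0.452 within groups. Closest to Hgf were Slmap (r = 0.933), Rgs5 (0.910) and Rbm47 (0.909), at 0.872, 0.534 and 0.726 within groups. With a pseudocount of 0.1, all 5 genes stayed for Ecm1, 1 of 3 for Reln and 2 of 3 for Hgf.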

How the data were processed

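Per the labels and the study's methods, the authors trimmed reads with Cutadapt (v2.7), aligned them to GRCm39 with HISAT2 (v2.2.1) and deposited raw counts per gene from HTSeq (v2.0.4); settings for strand and multiply aligned reads are not given in the sources used here. The deposited size-factor-normalized values were not used. Gene identifiers were matched to GENCODE M39 (21770 of 21959).

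Tests ran on the raw counts with edgeR 4.0.16 in R 4.3.3: TMM scaling, filterByExpr (minimum count 10), a quasi-likelihood fit of 16 mice in 4 groups and Benjamini-Hochberg adjustment over 13968 genes, with a threshold of 0.05; the code was tested on simulated data. CPM uses the TMM library sizes. Counting intervals are exact (95%) and cover counting error only. The labels number the samples of a group without saying that each is another mouse; they are called mice here, and p-values measure the spread between these samples, which may be technical.

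The 10 genes, and the pathway and cell type lists, were chosen with earlier results of these data known. The text names the 10 genes, up to 3 called genes with the largest change in each pathway list, their direct partners, defining markers of other cell types, and the genes most alike in pattern. Replicate numbers were not used to pair the mice in the main fit. DESeq2 1.42.0, other scalings and filters, a replicate block, the 8 mice of a comparison alone, merged control samples and each mouse left out were tried.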

Additional observations from a re-analysis of the deposited data

Results flagged for a closer look

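Of 39 groups of 4 mice in which the highest or lowest mouse was set against Dixon's 95% critical value, 2 passed it, where chance gives about 2. Combination mouse 4 stood below the other combination mice for Ecm1, at 865.4 CPM, and above them for Reln, at 0.5185 CPM.

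The SB525334 difference was of another size with KN046 than without it by the interaction term of the edgeR fit for 6 genes: Reln at -5.89 (log2), Lrat at -4.89, Colec11 at -4.35, Hand2 at -3.52, Vipr1 at -2.33 and Lhx2 at -6.15, the last a fitted value that depends on the prior count because Lhx2 was at 0 in all combination mice. These genes were listed with the group values known.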

How the results depend on the processing

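The number of the 10 genes called with SB525334 against control was 1, and it was 3 with DESeq2, 5 with DESeq2 at the study's thresholds, 4 with only the 8 mice compared, 0 with the similar control samples merged and 0 to 2 with 1 mouse left out. With KN046 against control it was 0, 1 with DESeq2, 2 at the study's thresholds and 0 to 1 with 1 mouse left out; over all genes the count fell from 559 to 0 with the control samples merged. For the combination against SB525334 it was 5, and 2 with only the 8 mice compared, where 7 of the 10 genes passed the filter, and Ecm1 minus the median of the others went from 3.35 to 0.99. That difference ranged, with 1 mouse left out, from 1.06 to 1.26 for SB525334, from -0.37 to -0.13 for KN046, from 4.18 to 4.73 for the combination against control, from 2.96 to 3.50 against SB525334 and from 4.30 to 5.49 against KN046. Genes called ranged from 7 to 8 for the combination against control, where Pth1r was added without combination mouse 1, and from 6 to 7 for the interaction. For DESeq2, the study's thresholds, the 8-mouse fits and the fits with 1 mouse left out, the share of all genes called is not given. The counts of the 10 genes under those settings can therefore not be judged beside it.

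Of 24 pairs of mice from different groups that shared a replicate number, 10 correlated above 0.1, over a range of -0.483 to 0.527. Pairs with different numbers were not set beside them, so these values cannot tell whether the number pairs the mice. With the number as a replicate block the SB525334 count became 0. No log2 fold change called in the main edgeR fit reversed its direction under the alternatives run. Values that were not called were not checked for a change of sign. A count of 0 over a group allows up to 3 counts (0.0389 CPM in the combination).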
